A study of Mus musculus with 6 samples.

Results

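The genes described here are 39 components of macroautophagy, from the kinases that start it to the receptors that load cargo, taken by name from the GENCODE vM21 annotation. They are 39 of 55536 annotated genes. RNA had been sequenced in RAW264.7, a macrophage-like mouse line established from a tumour induced with Abelson murine leukaemia virus and widely used for studies of inflammation and osteoclast formation. There were 3 control libraries from cells given phosphate-buffered saline (PBS, Ctrl) and 3 from cells given titanium particles (Ti), the debris that metal implants shed. Every sample carries the label of background strain C57BL/6, although this line is generally described as BALB/c in origin. The particle dose and the duration of exposure were not stated in the labels. Nor do these say that replicates came from separate cultures, and the spread behind each p-value may therefore be technical.

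Autophagy encloses cytoplasm or damaged organelles in a double membrane that fuses with the lysosome. The ULK kinase complex and a phosphatidylinositol 3-kinase complex built around Beclin 1 start it, ATG9 and ATG2 supply lipid, and 2 ubiquitin-like conjugation reactions attach ATG8 proteins (LC3 and GABARAP) to the growing membrane. Receptors such as p62, the product of Sqstm1, bind both ubiquitylated cargo and ATG8, and are consumed with the cargo, so their mRNA and protein levels need not move together. In macrophages the same conjugation machinery also marks phagosomes that have taken up particles or microbes.

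Levels are given in CPM, rescaled estimated counts set to a common TMM-scaled library total. After rescaling, gene sums came to between 37685950 and 60242851 per library, and 3 counts, taken as the detection floor, equalled 0.0498 to 0.0796 CPM over unscaled totals, for counting error only. Rows without a gene name, transcripts assembled by the authors, held 51.2% of the deposited total in Ti replicate 1 and 36.9% to 40.5% in the other libraries. What part of them belongs to autophagy genes was not tested, so a low value here is a low value in the annotated rows. The 8 macrophage markers examined were all measured, and their sum was 5357 to 7152 CPM in control and 6698 to 8511 CPM with Ti. Most of that sum was Lyz2, with means of 3857 CPM in control and 4743 CPM with Ti, so it says little of the others. The mean of Csf1r was 1177 ± 615 CPM in control and 656 ± 650 CPM with Ti (SD, n = 3 per group). Adgre1 and Cd68 also had lower means with Ti, while Itgam, Cd14, Spi1 and Fcgr1, like Lyz2, had higher ones. The groups overlapped in every marker. Markers of T cells, B cells, neutrophils, fibroblasts, epithelium and endothelium, 4 genes each, summed to at most 0.686 CPM per list in any library. In bulk RNA, fewer cells with a transcript and less transcript per cell cannot be told apart.

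Sqstm1 was lower with the particles in every library, at less than the control level by a mean factor of 2.30, and the kinase gene Ulk2 was lower by a factor of 1.48. Pik3c3, the catalytic subunit of the phosphatidylinositol 3-kinase, was lower by a small margin, and Atg4d, a protease gene of the ATG8 cycle, was higher. Of the 38 tested members, 31, Pik3c3 among them, had a log2 fold change smaller than 0.5 in size. The share of all genes with a change that small was not counted, and this cut does not measure the spread of the libraries. With an adjusted p under 0.05 (edgeR quasi-likelihood test, Benjamini-Hochberg adjustment over all 15376 genes tested), 0 members passed, where 4 genes, 0.026% of all, passed in the whole table, 2 higher and 2 lower. When same-numbered libraries were blocked, 0 genes passed in either direction, and 9.37% had an unadjusted edgeR p under 0.05, as did 6 of the 38 members. At an unadjusted edgeR p under 0.05, 4 of 38 members passed, or 10.5%, against 6.76% of all genes tested. DESeq2, run as an alternative, placed Sqstm1 and Ulk2 past an adjusted p of 0.05, 2 of 38 members, where it called 1.9% of all genes.

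**Figure D1:**
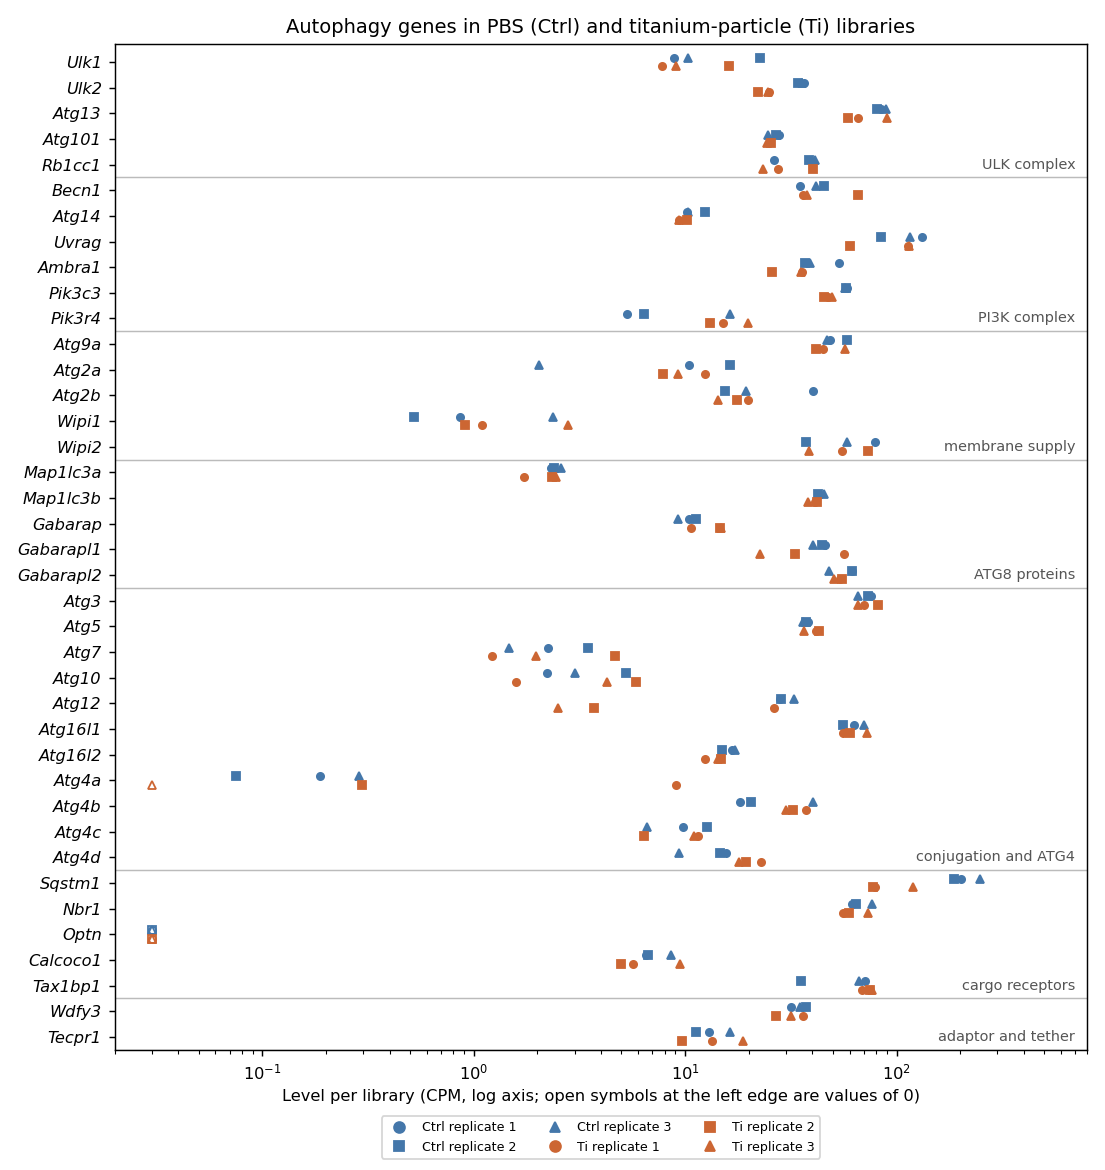
Level of each of the 39 genes in each library, in CPM on a log axis, grouped by role; blue symbols are the 3 control libraries, orange symbols the 3 Ti libraries, and symbol shape gives the replicate number. Sqstm1 was the member with the most CPM in each control library, and its 3 Ti libraries (77.3 to 120 CPM) lay left of its 3 control libraries (188 to 247 CPM), while Optn was at 0 throughout.

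As a list, 24 of 38 tested members had a negative fold change, or 63.2%, where 49.1% of all genes tested did. The median log2 fold change was -0.094 for the members and 0.0053 for all genes. In 9 members the 3 libraries of one group lay wholly on one side of the other, 23.7% of those tested against 13.3% of all genes. Of these, 8 were lower with Ti (Ulk2, Atg14, Ambra1, Pik3c3, Map1lc3b, Atg12, Atg16l2 and Sqstm1), 21.1% against 6.71% of all genes, and 1 was higher (Atg4d), where 6.63% of all genes were. All 4 members under an unadjusted edgeR p of 0.05 are among these 9, and 6.11% of all genes met both conditions. These are counts of a chosen list and carry no test. Leaving out control replicate 1 brought the members' median to -0.051.

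**Figure D2:**
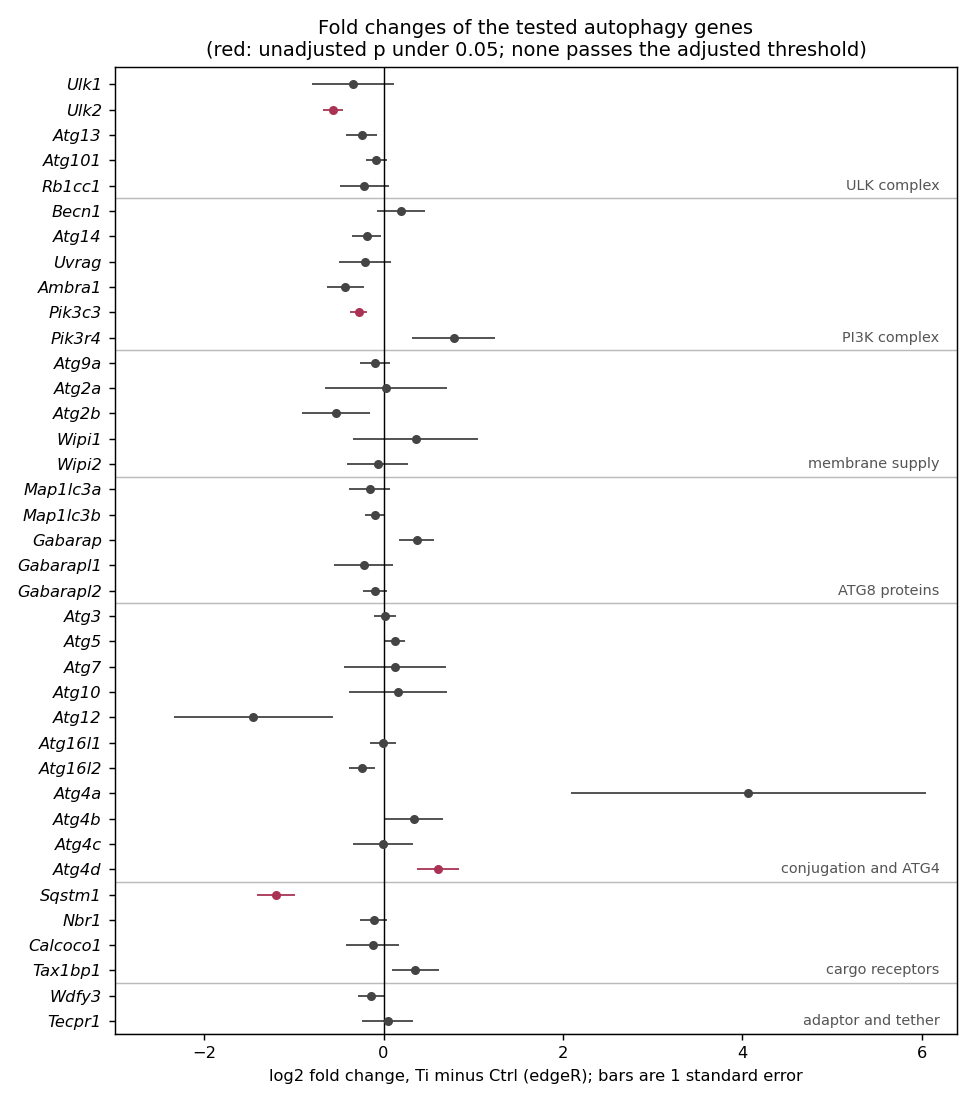
Log2 fold change (Ti minus control, edgeR) of the 38 tested members, with bars of 1 standard error, grouped by role; red marks an unadjusted p under 0.05. Most points lie within 0.5 of zero, with Sqstm1 at -1.20, Atg12 at -1.45 and Atg4a at 4.07 as the outlying values.

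The ULK complex answers nutrient and energy signals, and all 5 of its genes had negative fold changes, with a median of -0.24. Ulk2 (ENSMUSG00000004798, GRCm38 chromosome 11, 61775649 to 61855073, minus strand) encodes a serine/threonine kinase that acts alongside ULK1. Control replicates 1, 2 and 3 had 36.4, 34.0 and 35.6 CPM of it, and the same-numbered Ti libraries had 24.9, 22.2 and 24.6 CPM. The groups were tight and did not overlap, a pattern shared in this direction at an unadjusted edgeR p under 0.05 by 3.08% of all genes. The means were 35.3 ± 1.20 and 23.9 ± 1.48 CPM (SD, n = 3 per group). On the log2 scale the difference was -0.56 ± 0.12 (SE) with an edgeR unadjusted p of 0.00260 and an adjusted p of 0.312. Leaving out any 1 library kept the fold change between -0.60 and -0.51 and the unadjusted edgeR p between 0.00661 and 0.0120. DESeq2 gave an adjusted p of 0.000256, while the edgeR alternatives ranged from 0.235 to 0.721.

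Ulk1, the better known paralogue, stood at 8.85, 22.6 and 10.4 CPM in control and at 7.77, 16.2 and 9.09 CPM with Ti. The library numbered 2 was the highest in each group, and the groups overlapped, but each Ti library was below the control library of the same number. Its log2 fold change was -0.34 ± 0.46 (edgeR adjusted p of 0.965), and 0.20 without control replicate 2, the highest control library. With the replicate block it was -0.29 ± 0.14 (edgeR unadjusted p of 0.110, adjusted p of 0.592). Atg101 and Atg13, which encode further subunits of the complex, and Rb1cc1, which encodes FIP200, overlapped between the groups as well. Atg101 was the most even of them, at 24.6 to 27.7 CPM in control and 24.4 to 25.5 CPM with Ti.

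The phosphatidylinositol 3-kinase complex makes the lipid that recruits later factors. Pik3c3 (ENSMUSG00000033628, chromosome 18, 30272747 to 30348126, plus strand) was at 58.5, 57.4 and 56.8 CPM in control and at 47.5, 45.5 and 49.5 CPM with Ti. Every Ti library was below every control library. The means were 57.6 ± 0.857 and 47.5 ± 2.00 CPM (SD, n = 3 per group). This is a log2 fold change of -0.28 ± 0.09 with an edgeR unadjusted p of 0.0263 and an adjusted p of 0.644. With 1 library left out the unadjusted edgeR p was 0.0354 to 0.0821, and it was under 0.05 only without Ti replicate 3. The sum over its transcripts was steady, but the transcript that carried it was not, as described further on.

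Becn1, which encodes Beclin 1, the core regulator of the complex, stood at 34.9, 45.2 and 41.8 CPM in control and at 36.0, 65.9 and 37.9 CPM with Ti. Only Ti replicate 2 lay above the control range. Its log2 fold change of 0.20 ± 0.27 (edgeR adjusted p of 0.965) was -0.14 without that library. Atg14, which directs the complex to autophagosome formation, had 10.2 to 12.4 CPM in control and 9.36 to 10.2 CPM with Ti, so the groups were narrowly separate. Uvrag, which forms the alternative complex of endosome maturation, ranged from 84.3 to 133 CPM and from 60.2 to 114 CPM.

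Pik3r4 and Ambra1, also of this complex, were compared by replicate number after their values were seen. Pik3r4, which encodes the regulatory subunit VPS15, was at 5.33, 6.38 and 16.3 CPM in control and at 15.0, 13.2 and 19.9 CPM with Ti, and Ambra1, a Beclin 1 cofactor, was at 53.7, 37.1 and 39.0 CPM in control and at 35.7, 25.7 and 35.3 CPM with Ti. Pik3r4 was higher and Ambra1 lower with Ti in each of the 3 same-numbered pairs, a pairing that the labels do not state. Uvrag, Pik3c3 and Atg14 were also lower in each pair, and Becn1 differed in direction between pairs. The share of all genes with such agreement was not counted, so it cannot be said whether this is unusual. Without the block the log2 fold changes of Pik3r4 and Ambra1 were 0.78 ± 0.46 (edgeR unadjusted p of 0.140) and -0.43 ± 0.21 (0.0876). With the replicate block the unadjusted edgeR p was 0.0326 for Pik3r4 and 0.0376 for Ambra1, and the adjusted p was 0.506 and 0.514. Of the Pik3r4 sum 7.14% to 11.5% came from transcripts annotated as protein-coding and nearly all the rest from retained-intron transcripts.

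Genes that supply membrane showed no separation in any of the 5 cases. Atg9a, the gene of the lipid scramblase on vesicles that seed the phagophore, was at 46.8 to 58.4 CPM in control and 41.4 to 57.3 CPM with Ti. Atg2a and Atg2b, which encode lipid transfer proteins, each had 1 control library apart: Atg2a was at 2.04 CPM in control replicate 3 and at 7.82 CPM or more elsewhere, and Atg2b at 40.1 CPM in control replicate 1 and at 19.9 CPM or less elsewhere. Wipi2, a reader of phosphatidylinositol 3-phosphate, ranged from 37.2 to 78.8 CPM in control and from 38.6 to 72.9 CPM with Ti. Its relative Wipi1 was scarce, at 0.860, 0.524 and 2.37 CPM in control and at 1.09, 0.911 and 2.79 CPM with Ti, with the library numbered 3 the highest of each group.

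ATG8 proteins coat the membrane and bind the receptors. Map1lc3b, the source of the LC3B protein used as the standard autophagosome marker, was at 42.4, 42.4 and 45.3 CPM in control and at 41.0, 42.3 and 38.2 CPM with Ti. The groups did not overlap, but the nearest libraries were 42.4 and 42.3 CPM, and the log2 fold change was -0.098 ± 0.11 (edgeR adjusted p of 0.945). Gabarapl2 was at 47.7 to 61.4 CPM in control and 50.8 to 55.4 CPM with Ti. Gabarapl1 was even in control, at 40.2 to 45.8 CPM, and spread from 22.5 to 56.5 CPM among the Ti libraries. Map1lc3a, the LC3A gene, was low but even, at 2.31, 2.39 and 2.59 CPM in control and at 1.74, 2.36 and 2.45 CPM with Ti.

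Gabarap (ENSMUSG00000018567, chromosome 11, 69991143 to 69994951, plus strand) stood at 10.5, 11.3 and 9.28 CPM in control and at 10.7, 14.7 and 14.8 CPM with Ti. Ti replicates 2 and 3 were above all control libraries and Ti replicate 1 was within their range. The log2 fold change was 0.37 ± 0.19 (edgeR unadjusted p of 0.101, adjusted p of 0.816). Its sign depended on which transcripts were counted: over protein-coding transcripts alone it was -1.24.

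The conjugation enzymes divided into steady and uneven genes. Atg3, the E2-like enzyme for ATG8, ranged from 65.6 to 75.7 CPM in control and from 66.0 to 81.5 CPM with Ti. Atg5, which is joined to ATG12 in the other conjugate, was at 38.0, 37.2 and 36.2 CPM in control and at 41.7, 43.1 and 36.6 CPM with Ti. Its log2 fold change was 0.12 ± 0.12 (edgeR adjusted p of 0.933). Atg16l1, which places the conjugate on membranes, was at 55.9 to 70.4 CPM and 56.0 to 72.2 CPM. Atg16l2, a related gene, was at 15.0 to 17.3 CPM in control and at 12.4 to 14.7 CPM with Ti, and its groups did not overlap. In the annotation 21372 bases of the whole gene overlap Fchsd2 on the other strand. Whether reads were counted by strand is not stated in the labels. Only 1 Atg16l2 transcript, ENSMUST00000207740, reaches below position 101285321, and it was at 0 CPM in all 6 libraries. Which transcripts the overlap touches was not tested. Fchsd2 was at 16.1 to 19.6 CPM in control and at 19.9 to 32.3 CPM with Ti.

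Atg12, the ubiquitin-like partner of ATG5, was the most uneven of the abundant members. The control libraries held 28.0, 28.4 and 32.7 CPM, and Ti replicates 1, 2 and 3 held 26.3, 3.70 and 2.52 CPM. Ti replicate 1 was just under the control libraries, and Ti replicates 2 and 3 were far below them. The log2 fold change of -1.45 ± 0.89 (edgeR unadjusted p of 0.151, adjusted p of 0.848) was -3.26 without Ti replicate 1 (edgeR adjusted p of 0.129), -1.04 without Ti replicate 2, -0.98 without Ti replicate 3 and -2.31 with the replicate block.

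The E1-like enzyme gene Atg7 and the E2-like gene Atg10 were scarce in the annotated rows, at 1.22 to 4.66 CPM and 1.59 to 5.84 CPM over the 6 libraries, with the library numbered 2 the highest of each group in both genes. ATG4 proteases trim ATG8 before conjugation and release it afterwards. Atg4d (ENSMUSG00000002820, chromosome 9, 21265293 to 21277772, plus strand) was at 15.6, 14.6 and 9.40 CPM in control and at 22.9, 19.4 and 18.0 CPM with Ti. All Ti libraries were above all control libraries, as in 3.03% of all genes in this direction at an unadjusted edgeR p under 0.05. The means were 13.2 ± 3.33 and 20.1 ± 2.50 CPM (SD, n = 3 per group). The fitted log2 fold change was 0.61 ± 0.23 with an edgeR unadjusted p of 0.0393 and an adjusted p of 0.707. With 1 library left out the value was 0.42 to 0.74 and the unadjusted edgeR p 0.0347 to 0.118, under 0.05 only without control replicate 1 or Ti replicate 3. Over protein-coding transcripts alone that p was 0.0765. A stretch of 4316 bases of Atg4d overlaps Kri1 on the other strand, which was at 57.0 to 58.9 CPM in control and at 49.1 to 56.6 CPM with Ti.

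Atg4b, the main protease of the family, was at 18.2 to 40.1 CPM in control and 30.0 to 37.1 CPM with Ti, and Atg4c overlapped between the groups at 6.38 to 12.7 CPM. Atg4a was nearly silent in 5 libraries: its rescaled counts were 12, 3 and 12 in control and 423, 11 and 0 in Ti replicates 1, 2 and 3. The log2 fold change of 4.07 ± 1.98 (edgeR adjusted p of 0.798) therefore came from Ti replicate 1, and it was -0.38 without that library. A gene named Atg4a-ps, after a pseudogene of Atg4a, is annotated on another chromosome, so the assignment of these reads is uncertain.

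**Figure D3:**
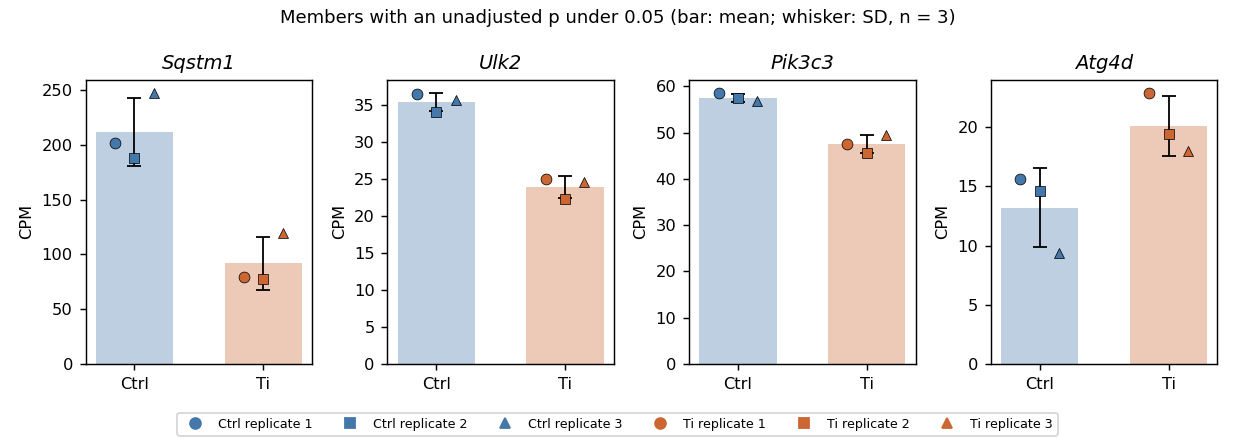
CPM of the 4 members with an unadjusted edgeR p under 0.05, by library, with bars for the mean and whiskers for the SD (n = 3 per group). The means went from 212 to 92.1 CPM for Sqstm1, from 35.3 to 23.9 CPM for Ulk2, from 57.6 to 47.5 CPM for Pik3c3 and from 13.2 to 20.1 CPM for Atg4d.

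Among cargo receptors, Sqstm1 (ENSMUSG00000015837, chromosome 11, 50199366 to 50210827, minus strand) was the member with the smallest p. Its product p62 links ubiquitylated proteins to LC3 and also acts in NF-kB and NRF2 signalling. The control libraries held 201, 188 and 247 CPM of it, and the Ti libraries 79.1, 77.3 and 120 CPM. The highest Ti library was well below the lowest control library. The means were 212 ± 31.1 and 92.1 ± 24.1 CPM (SD, n = 3 per group). In the edgeR fit the log2 fold change was -1.20 ± 0.21 with an edgeR unadjusted p of 0.00119 and an adjusted p of 0.235. A fold change at or below this value was found in 1.7% of all genes tested. With any 1 library left out the value was between -1.44 and -1.08 and the unadjusted edgeR p between 0.000205 and 0.00572. DESeq2 gave an adjusted p of 0.000445, while the edgeR alternatives ranged from 0.111 to 0.585.

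Sqstm1 had the highest mean per unit of length in both groups, although in CPM the Ti mean of Uvrag, 96.0, was above the 92.1 of Sqstm1. On a per-length scale, deposited values over genomic span, scaled to one common total over all annotated genes, its level was 142 ± 28.2 in control and 70.6 ± 19.2 with Ti (SD, n = 3 per group). The next member, Gabarapl2, was at 44.8 ± 3.66 in control and 42.6 ± 3.68 with Ti. Atg3 followed with 44.0 ± 0.817 and 44.4 ± 1.85, which differs from Gabarapl2 by less than the spread. The lowest members with any signal in control were Atg7 (2.20 ± 0.409), Wipi1 (0.765 ± 0.602) and Atg4a (0.359 ± 0.211).

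The other receptors did not follow Sqstm1. Nbr1, which resembles p62 in structure and function, was at 61.5 to 77.0 CPM in control and 55.7 to 73.0 CPM with Ti. Tax1bp1, a receptor for bacteria and protein aggregates, was at 70.8, 35.5 and 66.2 CPM in control and at 68.8, 74.9 and 77.0 CPM with Ti, so that control replicate 2 alone was low. Calcoco1, a receptor for the endoplasmic reticulum and Golgi, was at 6.57 to 8.60 CPM and 4.98 to 9.44 CPM. Optn, which encodes optineurin, was listed at 0 in each of its 5 annotated transcripts in all 6 libraries and was not tested. Wdfy3, the gene of the aggregate adaptor ALFY, and Tecpr1, the gene of a tether between autophagosome and lysosome, overlapped between the groups, at 27.0 to 37.5 CPM and 9.70 to 18.8 CPM over all libraries.

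The start regions of the 2 members with the smallest p are shown because these genes were lower with Ti in every library; the sequences are RefSeq promoters on GRCm38.p6, from 250 bases before to 50 bases after the start, and a motif found by search is in capitals. For Sqstm1 (chr11:50210771-50211070, minus strand) the capitals mark the letters of a TATA box, TATAAA, at position 250 of the window. They overlap the start itself and do not lie upstream of it. For Ulk2 (chr11:61855043-61855342, minus strand) they mark the core of an antioxidant response element, TGACNNNGC, at position 234.
Sqstm1: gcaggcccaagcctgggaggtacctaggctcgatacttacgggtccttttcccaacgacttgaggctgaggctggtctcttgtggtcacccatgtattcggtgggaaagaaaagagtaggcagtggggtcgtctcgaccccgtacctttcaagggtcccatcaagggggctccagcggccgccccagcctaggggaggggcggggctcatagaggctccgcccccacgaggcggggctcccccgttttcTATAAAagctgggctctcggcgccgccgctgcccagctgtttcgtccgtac
Ulk2: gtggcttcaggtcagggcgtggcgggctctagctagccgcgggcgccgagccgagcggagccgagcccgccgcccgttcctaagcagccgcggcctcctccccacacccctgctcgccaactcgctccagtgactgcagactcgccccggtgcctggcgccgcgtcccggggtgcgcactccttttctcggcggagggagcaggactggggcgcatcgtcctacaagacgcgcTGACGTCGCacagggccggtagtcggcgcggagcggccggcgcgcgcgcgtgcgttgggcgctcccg

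Of the 39 members 32 had an entry in the RefSeq promoter set, with 36 windows among them. Members with a motif are counted by gene and the shares of the whole set by window, so the units differ. Both strands were searched, and overlaps between motifs were allowed. The TATA box was in 2 members (Atg4a and Sqstm1) and in 13.6% of all 32851 promoter windows of this length. The antioxidant core was in 4 members (Atg13, Map1lc3b, Tax1bp1 and Ulk2) and in 12.4% of all windows. The E-box CACGTG, the core of the sites bound by TFEB, was in 4 members (Atg3, Atg5, Atg7 and Atg14) and in 7.15% of all windows, and the AP-1 site TGANTCA, in 7.81% of all windows, was in 0 members. For NF-kB only an exact spelling of the site, with no variable letters, was searched, and it was in 0 members and 0.155% of all windows. A spelling that rare would hardly be met among 32 members in any case. Other forms of the site were not searched, so whether these members hold NF-kB sites was not tested. These are matches of letters only. In this search Ulk2 held the antioxidant core, and the Sqstm1 window held only the TATA box.

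The annotated start of Sqstm1 lies against that of Mrnip, a gene on the other strand whose annotation overlaps it by 750 bases. Mrnip was at 5.05, 4.99 and 1.20 CPM in control and at 0.601, 1.15 and 0.665 CPM with Ti. Its groups were separate by a narrow margin, since control replicate 3 was close to Ti replicate 2. The log2 fold change was -2.22 ± 0.62 (edgeR unadjusted p of 0.0108, adjusted p of 0.495). Reads in the overlap cannot be told apart between the genes without strand, and what part they have in either value was not tested.

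Gene sums can hide which transcript carries them. The members have 285 annotated transcripts, of which 146 passed the filter on low counts. With an adjusted p under 0.05 in a fit over all 41599 transcripts tested, 0 of the members' transcripts passed, against 0.00721% of all, and 3 had an unadjusted edgeR p under 0.05, 2.05% of those tested against 4.29% of all. None met the rule for transcripts switched off in one group, at most 3 rescaled counts in each of its libraries and at least 50 in each of the other's. The transcript with the smallest p was ENSMUST00000102774, the main protein-coding transcript of Sqstm1. It was at 186, 180 and 236 CPM in control and at 43.0, 55.5 and 112 CPM with Ti, so that Ti replicate 3 was the highest of its group. Its log2 fold change was -1.53 ± 0.37 (edgeR unadjusted p of 0.00661, adjusted p of 0.775). A longer protein-coding transcript, ENSMUST00000015981, was at 7.86, 3.91 and 7.12 CPM in control and at 23.3, 15.3 and 2.07 CPM with Ti, so Ti replicates 1 and 2 were above control and Ti replicate 3 below.

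For Ulk2 a single protein-coding transcript, ENSMUST00000004920, held 98.5% to 99.8% of the sum in every library, so the gene and transcript values were nearly the same. Pik3c3 was the opposite case. Control replicates 1 and 3 held 45.9 and 46.9 CPM of ENSMUST00000131405, whose annotation is nonsense-mediated decay, and the other 4 libraries held no more than 0.184 CPM. The protein-coding transcript ENSMUST00000115812 was at 0.405, 18.2 and 9.78 CPM in control and at 47.1, 45.2 and 16.3 CPM with Ti, and another, ENSMUST00000115811, was at 12.2, 39.0 and 0 CPM and at 0, 0 and 32.9 CPM. Libraries of 1 group thus differed more from each other in these transcripts than the groups did in the sum. Over protein-coding transcripts alone the log2 fold change of Pik3c3 was 0.87 ± 0.68 (edgeR unadjusted p of 0.253), against -0.28 for the sum.

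**Figure D4:**
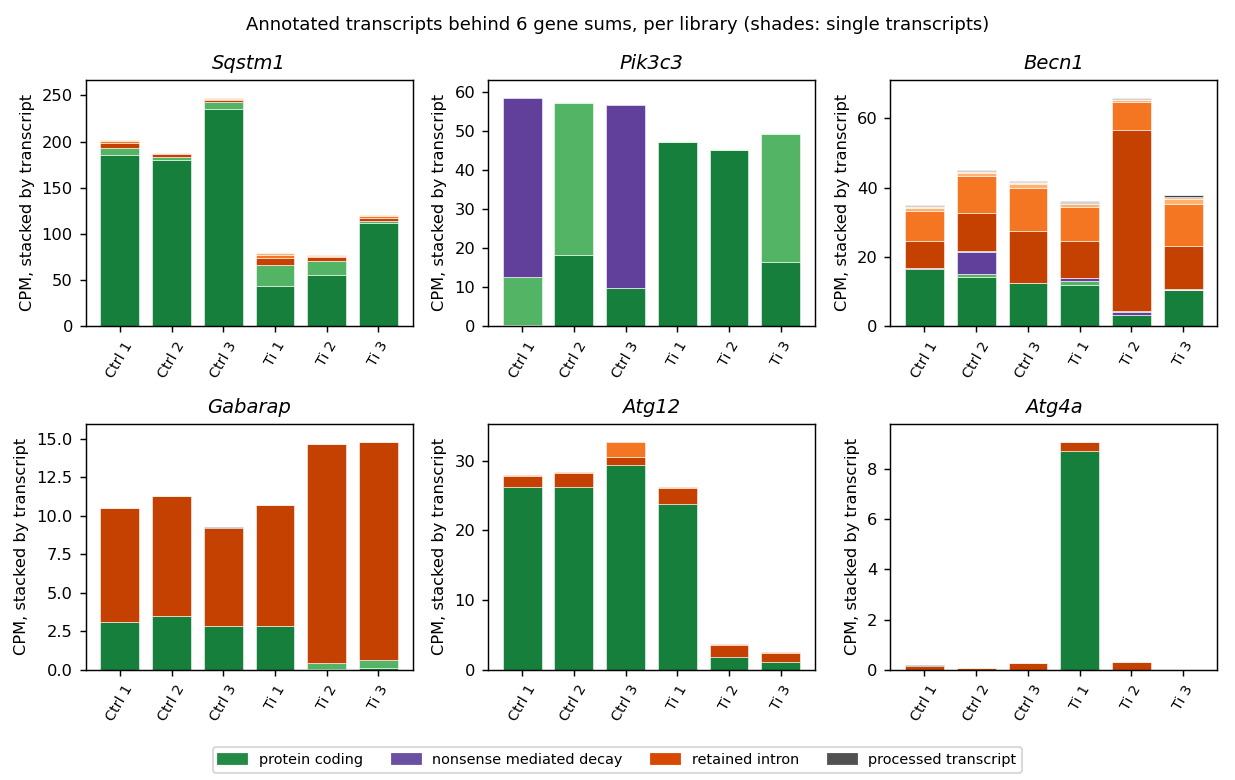
CPM of the annotated transcripts of 6 members in each library, stacked, with green for protein-coding, purple for nonsense-mediated decay, orange for retained-intron and grey for other processed transcripts, and shades for single transcripts. The Pik3c3 sum stays between 45.5 and 58.5 CPM while its transcripts trade places, and the green parts of Gabarap and Atg12 are low in Ti replicates 2 and 3.

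The protein-coding parts of Gabarap and Atg12 were low in the same libraries. ENSMUST00000018711 of Gabarap was at 3.10, 3.51 and 2.87 CPM in control and at 2.82, 0.0665 and 0.125 CPM with Ti, while its retained-intron transcript ENSMUST00000144443 was at 7.37, 7.79 and 6.35 CPM and at 7.85, 14.2 and 14.1 CPM. ENSMUST00000035648 of Atg12 was at 26.2, 26.2 and 29.5 CPM in control and at 23.8, 1.84 and 1.16 CPM with Ti, with no other annotated Atg12 transcript above 2.26 CPM. In Gabarap the retained-intron form was high where the coding form was low, and in Atg12 no annotated form was. In Becn1 the coding transcript ENSMUST00000130916 was at 16.5, 14.1 and 12.5 CPM in control and at 11.8, 3.16 and 10.4 CPM with Ti. These groups were separate by a narrow margin, and the share of all transcripts with separate groups was not counted. The sum of the Becn1 coding transcripts had a log2 fold change of -0.69 ± 0.50 (edgeR unadjusted p of 0.220, adjusted p of 0.848). The retained-intron transcript ENSMUST00000122817 of Becn1 reached 52.3 CPM in Ti replicate 2 against 7.62 to 14.8 CPM in the other libraries. Whether reads of these genes are held by the assembled rows in some libraries was not tested. Over all members with values, 23 of 38 had at least 50% of their sum in protein-coding transcripts in every library, 5 were under 50% in every library, and 10 crossed that line between libraries.

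**Figure D5:**
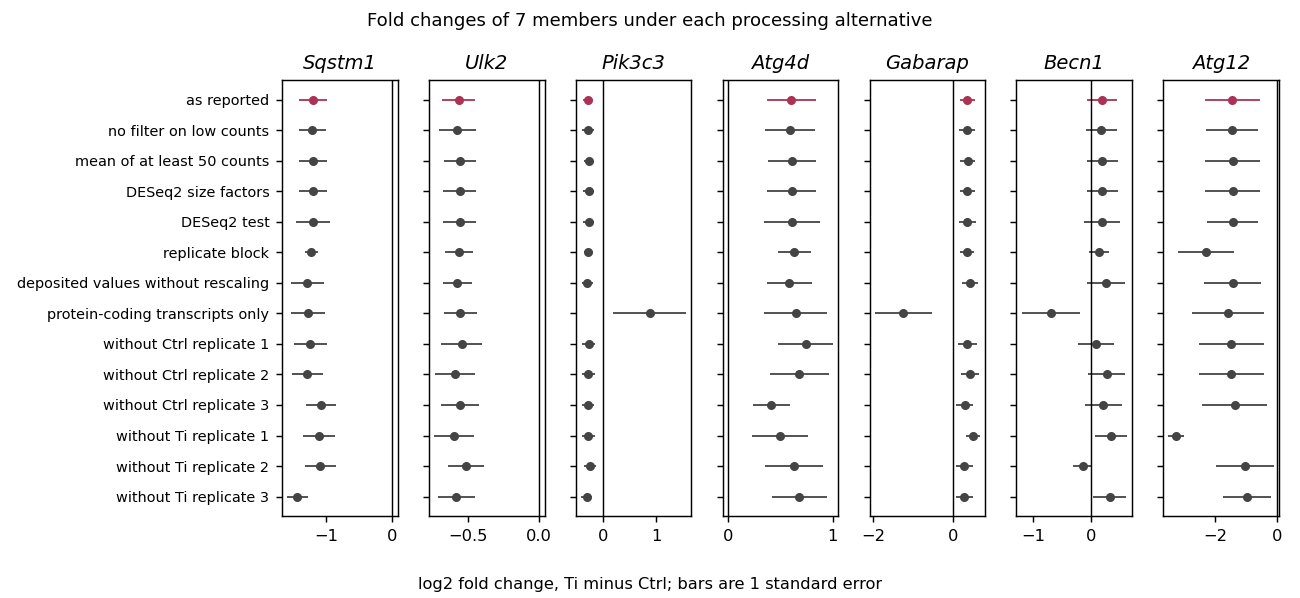
Log2 fold change (Ti minus control, bars of 1 standard error) of 7 members as reported (red) and under each of 13 processing alternatives (grey). Sqstm1 and Ulk2 stay below zero in each, whereas Pik3c3, Gabarap and Becn1 change sign when only protein-coding transcripts are summed, and Becn1 also without Ti replicate 2.

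Other genes of the pathway, 41 regulators, fusion factors and selective receptors, gave 0 genes past an adjusted edgeR p of 0.05 in either direction among 39 tested. Their median log2 fold change was 0.039, and 17 of 39 were negative. At an unadjusted edgeR p under 0.05 there were 2, 5.13% against 6.76% of all genes. Trp53inp1, a p53-inducible gene whose product binds ATG8, was at 1.95, 2.29 and 2.04 CPM in control and at 0.987, 0.750 and 0.998 CPM with Ti, lower in all libraries. Its log2 fold change was -1.20 ± 0.24 (edgeR unadjusted p of 0.00250, adjusted p of 0.307). DESeq2 gave it an adjusted p of 0.00349, the range of the edgeR adjusted p over its other alternatives was 0.271 to 0.996, and over protein-coding transcripts alone its log2 fold change was -0.27. Sesn1, another p53 target, which restrains mTORC1, was at 83.1, 76.8 and 52.6 CPM in control and at 47.0, 45.7 and 39.1 CPM with Ti, also without overlap, a log2 fold change of -0.69 ± 0.20 (edgeR unadjusted p of 0.0120, adjusted p of 0.521).

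Tfeb, the transcription factor that drives lysosomal and autophagy genes, was at 40.6, 8.18 and 32.2 CPM in control and at 11.0, 10.8 and 11.9 CPM with Ti. Control replicate 2 was below the Ti libraries, so the groups overlapped. The log2 fold change was -1.27 ± 0.55 (edgeR unadjusted p of 0.0589, adjusted p of 0.758), and -1.70 without control replicate 2 (edgeR unadjusted p of 0.000166, adjusted p of 0.189). Vmp1, needed for membrane contacts at the forming autophagosome, had -0.43 ± 0.21. Smcr8, a partner of C9orf72, had 0.18 ± 0.09 and Irgm1, an interferon-inducible GTPase with a role in autophagy, 0.55 ± 0.26. Irgm1 was at 107 CPM in Ti replicate 3 and at 48.4 to 59.7 CPM in the other libraries, and its value was 0.19 without Ti replicate 3. As reported, none of these 4 had an unadjusted edgeR p under 0.05, but each did under at least 1 alternative: Smcr8 with the replicate block (0.0430), Irgm1 without Ti replicate 1 (0.0396), Vmp1 without rescaling (0.0281) and Tfeb as given above. The adjusted p stayed above 0.05 in each of these.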

How the data were processed

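Each of the 6 deposited tables gives estimated counts for 187351 transcripts, as whole numbers. The authors used HISAT2, StringTie and mm9, per the submitters' processing notes. Neither their versions nor the counting step were stated there. All 141862 Ensembl identifiers match GENCODE vM21, so names and coordinates are those of GRCm38. The other 45489 rows, assembled transcripts, were not used.

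The lowest deposited values depended on gene size: across 9 bins of span over exon length (median 1 to 67.3), the lower quartile of nonzero values went from 3 to 198. Each annotated value was therefore multiplied by exon length over span, summed per gene and rounded. Unlike plain counts, these sums carry the authors' assignment of reads to transcripts. The quasi-likelihood test of edgeR 4.0.16, with TMM scaling and filterByExpr, was run in R 4.3.3, with p-values adjusted by Benjamini-Hochberg. A standard error is the log2 fold change over the square root of F. DESeq2 1.42.0 was an alternative. The steps were tested on simulated data. Figures were drawn with matplotlib 3.10.9.

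Members and lists were chosen with earlier results of these data known. Per-library values are printed for members whose groups do not overlap with an unadjusted p under 0.05, for Sqstm1, Map1lc3b, Gabarap, Becn1, Ulk1 and Atg5 in any case, and for the members lowest in control (Atg4a, Wipi1 and Optn). Those of Atg12, Pik3r4, Ambra1, Map1lc3a and Tax1bp1, and the transcripts named, were chosen after their values were seen. Of the other pathway genes the 6 with the smallest p are named. No libraries agreed within sampling noise. Same-numbered libraries deviated together from their group means (correlations across genes of 0.110, 0.144 and 0.266, against -0.170 to 0.0402 for other pairs). Every pair was over 0.1, so equal numbers were treated as pairs in the alternative with the replicate block. That pairing comes from the data, not the labels. Deviations from a group mean cancel within each gene, so the correlations of same-numbered and other pairs are not independent. Whether the pairing is real was not tested. The main fit, which gave the values not marked as an alternative, had no such block.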

Additional observations from a re-analysis of the deposited data

How the results depend on the processing

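The direction of Sqstm1, Ulk2 and Atg4d held under all 13 alternatives, and that of Pik3c3 under all but 1. Blocked by replicate number, Sqstm1 had a log2 fold change of -1.23 ± 0.09 (edgeR unadjusted p of 0.000245, adjusted p of 0.233). In the same edgeR fit Ulk2 had -0.56 ± 0.10 (0.00505 and 0.387), Pik3c3 -0.28 ± 0.08 (0.0325 and 0.505) and Atg4d 0.63 ± 0.16 (0.0179 and 0.455). When only protein-coding transcripts were summed, Pik3c3 had a log2 fold change of 0.87, Gabarap -1.24 and Becn1 -0.69, signs opposite to those of the full sums, and 1 gene was higher and 1 lower in the whole table. With each library left out in turn, the values were -0.73 to 0.20 for Ulk1, -0.14 to 0.35 for Becn1 and -0.38 to 4.65 for Atg4a, and -0.11 to -0.051 for the members' median. Over all genes this gave 1 to 8 higher and 0 to 7 lower. With no filter on low counts 1 gene was lower. With the replicate block 0 genes were higher and 0 lower (lowest edgeR adjusted p 0.0718), and 1440 had an unadjusted p under 0.05; among members that number went from 4 to 6, and no member passed the adjusted threshold. DESeq2's test called 163 genes higher and 129 lower, with 2 members lower and 1 other autophagy gene lower, and gave no p for Atg12 and Atg4a. No member's transcript passed in any alternative run for transcripts (the replicate block, a mean of at least 50 counts, or a library left out). Counts were lowest for Atg4a and Wipi1, and Optn cannot be assessed at 0.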

Other observations

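Some of the other autophagy genes, chosen here after their values were seen, were uneven between libraries of the same group. Plekhm1, which joins autophagosomes and lysosomes, was at 4.26 and 2.12 CPM in the libraries numbered 2 of the control and Ti groups and at 87.6 to 117 CPM in the other 4. Bnip3, a mitophagy receptor induced by hypoxia, was at 50.3 CPM in Ti replicate 2, at 9.23 CPM in Ti replicate 3 and at 5.44 CPM or less elsewhere. Nrbf2, a modulator of the phosphatidylinositol 3-kinase complex, was at 0 CPM in control replicate 2 and at 4.80 to 8.60 CPM in the other 5 libraries.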
